A study of Rattus norvegicus with 3 samples.

Results

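In the injured rat spinal cord, 859 phagocytes were classed as Mmp12 Fabp4 macrophages, of 2959 phagocytes and 5815 cells that passed the cell filter. The cells came from 3 single-cell libraries, 1 for each substance given at the injury site: PBS, G-HD or MPG-HD, the last 2 being named only by these codes in the sample labels. All animals were wild-type rats aged 6 to 8 weeks, with 5 animals per condition, and each library was made from the 5-mm piece of cord around the injury, digested with collagenase and trypsin. Pooling of animals into a library, and the time from injury to tissue collection, are unknown here because the labels do not state them. The PBS library held 168 of the cells, the G-HD library 458 and the MPG-HD library 233.

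Membership was decided by measured RNA, so the genes that decided it are no finding. A phagocyte was a cell with at least 10 UMIs (counted molecules) of Csf1r, Cd68 and Tyrobp together per 10000, fewer than 100 per 10000 of S100a8 and S100a9, and fewer than 2 UMIs of Top2a. Each phagocyte received 4 scores, the mean standardized log level of 4 genes each. Class A rested on the microglial genes Tmem119, P2ry12, Gpr84 and Slc2a5. Class B, the cells described here, rested on Mmp12, Fabp4, Fabp5 and Pla2g7. Class C rested on Cd8a, Ms4a4e, Hpgds and Siglec1, and class D on RT1-Db1, RT1-Ba, Clec10a and Lyve1. A cell belonged to the class of its highest score, which left 808 cells in class A, 745 in class C and 547 in class D.

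Macrophages that enter an injured cord, together with resident microglia, take up the debris of broken myelin, which is rich in cholesterol and other lipids. Fatty acid binding proteins carry fatty acids through the cytoplasm, surplus cholesterol is esterified and kept in droplets or exported with apolipoprotein E, and cells that store much of it are known as foam cells. Mmp12 is macrophage elastase, a secreted protease that cuts elastin and other matrix proteins, and Pla2g7 is a secreted phospholipase that cleaves oxidized phospholipids. RNA alone does not show lipid in a cell, so the word lipid-laden in the working name was not measured.

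Each library was 1 sample per condition, so no difference between libraries has a replicate check. Levels are UMIs of a gene per 1000000 UMIs (CPM, the usual scale) summed over the cells named. All intervals are exact 95% intervals that cover counting error only. The libraries held 16081082 UMIs (PBS), 26289759 (G-HD) and 23988263 (MPG-HD) over all deposited barcodes, 1513, 2619 and 2339 in number, of which 1377, 2347 and 2091 passed the cell filter. The members had a median of 17623, 19170 and 18604 UMIs per cell in these libraries, against 10730, 9882 and 11098 for the other phagocytes. Per-cell comparisons between members and other phagocytes are therefore also comparisons between deeper and shallower cells.

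The genes that defined the class differed in how widely they were detected. Mmp12 was found in 32.7% of members in the PBS library, 46.3% in G-HD and 31.3% in MPG-HD, at 317.5, 562.0 and 271.2 CPM. Fabp4 was found in 75%, 88.0% and 73.8% of members, at 1730, 1512 and 832.8 CPM. Fabp5 was found in 95.8%, 96.9% and 94.9%, at 3022, 3087 and 3721 CPM, and Pla2g7 in 80.4%, 90.2% and 86.3%, at 331.8, 381.0 and 343.1 CPM. Fewer than 1 in 2 members thus held a Mmp12 UMI in any library, and Fabp5 was close to universal. All 4 genes were detected together in 25.6%, 41.7% and 26.2% of members. Oligodendrocyte-type cells, used to gauge free RNA, held Mmp12 in 1.45% of cells, Fabp4 in 4.34%, Fabp5 in 60.3% and Pla2g7 in 2.23%. Their median depths were 11036, 10495 and 11998 UMIs. For Fabp5 the share of cells with a UMI is therefore a weak description, while its level was 3238 CPM in members and 213.1 CPM in those cells. Fabp4 stood at 1377 CPM in members and only 4.135 CPM in those cells. Whether their Fabp5 was free RNA or their own was not tested. Over all libraries Mmp12 stood at 443.1 CPM in members, 28.5 in class D, 4.555 in class C and 1.677 in class A. Fabp4 stood at 1377, 109.7, 108.1 and 20.91 CPM in the same order. When every member with at least 2000 UMIs was thinned to that number, Mmp12 was left in 21.8%, 29.6% and 19.2% of members.

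**Figure D1:**
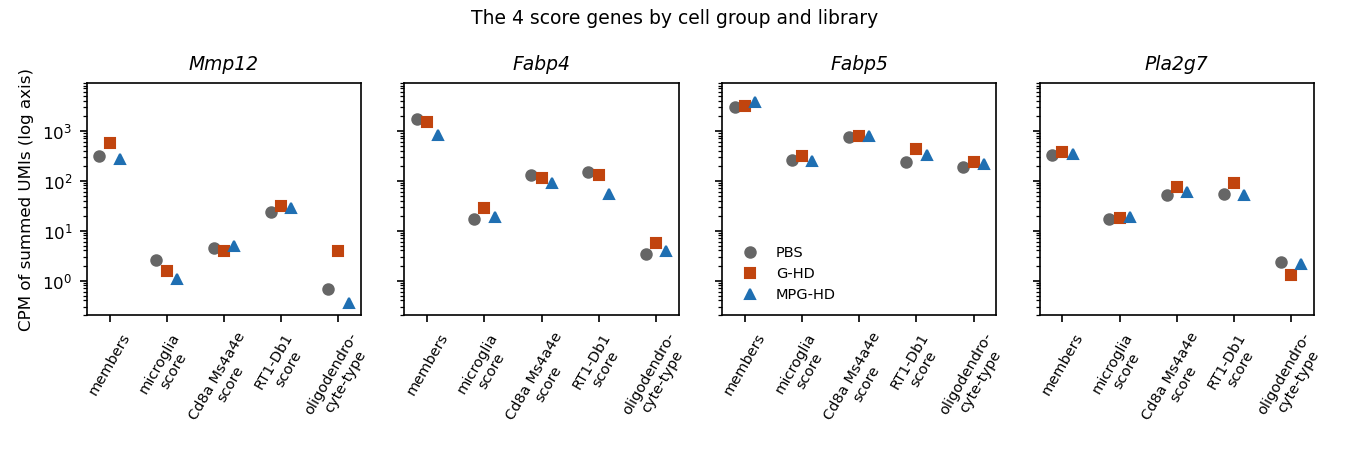
Level (CPM, log axis) of Mmp12, Fabp4, Fabp5 and Pla2g7 in members, in the classes of the microglia (A), Cd8a Ms4a4e (C) and RT1-Db1 (D) scores, and in oligodendrocyte-type cells, 1 point per library. These genes chose the members, so the plot is a description; the members' Mmp12 ran from 271.2 to 562.0 CPM.

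The class had a soft border. The score of the chosen class exceeded the next one by a median of 0.708 in PBS, 0.942 in G-HD and 0.717 in MPG-HD. In 65 members (7.57%) the gap was under 0.1, and in 376 (43.8%) it was at least 1. Another 69 phagocytes missed membership by less than 0.1. Members inside that margin held Mmp12 at 36.4 CPM and Fabp4 at 669 CPM, and cells just outside it 20.5 and 434 CPM. Spp1, which is not in the score, stood at 4082 CPM just inside and 4501 CPM just outside. The next best class was C for 87, 254 and 131 members, D for 74, 197 and 94, and A for 7, 7 and 8. Of all members 66 had a score below 0, meaning below the phagocyte mean; their median depth was 2508 UMIs.

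The label of macrophage was set beside marker genes, although several of them took part in the rule. Cd68, a lysosomal membrane protein of phagocytes, stood at 2845, 3470 and 2941 CPM in members of the PBS, G-HD and MPG-HD libraries. Csf1r, the receptor for the survival factor of macrophages, stood at 170, 139 and 122 CPM. Tmem119, a marker of resident microglia, was at 7.52, 2.31 and 2.41 CPM, against 238, 296 and 255 CPM in class A. Cd68 and Csf1r were part of the gate, which every phagocyte passed, and Tmem119 of the score of class A, so these 3 do not check the label. Of the 13 measured genes in a list of microglial identity that left out the score genes, 11 were at least 1.5-fold lower in members than in other phagocytes in all 3 libraries and 0 were higher. The other phagocytes include class A, chosen by microglial genes, so part of this contrast was set by the rule. Against class C 6 of 11 were lower and 0 higher, and against class D 6 of 9 were lower and 1 higher. In a list of monocyte-derived identity 4 of 10 measured genes were higher than in the other phagocytes and 2 lower. Its medians were log2 0.64, -0.20 and 0.44 in PBS, G-HD and MPG-HD. Against class A alone 6 of 9 were higher and 2 lower, and against class D 0 of 7 were higher and 2 lower. Against class C 5 of 9 were higher and 1 lower, with medians of log2 1.46, 0.90 and 1.24. The monocyte-derived list thus stood above classes A and C and not above class D.

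The promoters of the protease and phospholipase genes are shown because both belong to the score, and Mmp7 because its level differed several-fold between the libraries. The AP-1 motif TGANTCA, the site read by Fos and Jun dimers, was searched on both strands from 250 bases before to 50 after the start in the RefSeq promoter table (build GRCr8). It was found in 7.33% of the 33469 promoters. Capitals mark it, and the 150 bases before the start are printed 5′ to 3′ on the gene's strand. Mmp12 lies at chr8:12866502-12866651 on the plus strand, Pla2g7 at chr9:24901748-24901897 on the minus strand and Mmp7 at chr8:13132893-13133042 on the plus strand.
Mmp12: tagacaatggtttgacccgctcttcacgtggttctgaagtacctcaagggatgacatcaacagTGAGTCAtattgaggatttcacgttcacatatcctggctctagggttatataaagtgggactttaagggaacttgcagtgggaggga
Pla2g7: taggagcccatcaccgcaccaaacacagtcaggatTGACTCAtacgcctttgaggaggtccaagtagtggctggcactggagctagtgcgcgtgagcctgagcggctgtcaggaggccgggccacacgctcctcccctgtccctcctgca
Mmp7: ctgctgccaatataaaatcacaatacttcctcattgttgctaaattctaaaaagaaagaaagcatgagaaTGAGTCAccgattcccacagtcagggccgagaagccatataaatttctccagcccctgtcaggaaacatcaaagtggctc
The motif began 87, 115 and 80 bases before the start. Of the 4 score genes, Mmp12 and Pla2g7 matched the table. Motifs named E-box, PU.1, ISRE and TATA were searched as well, and AP-1 was the only one that both genes held. Mmp12 also held E-box and TATA, and neither gene held PU.1 or ISRE. Among the 20 other genes that set members apart most, 15 matched and 3 held AP-1: Mmp7, Phospho1 and Plp2. PU.1 was held by 5 of the 15 and by 27.6% of all promoters. A match describes the letters only and says nothing of binding in these cells.

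Many of the most abundant RNAs of the members came from lipid transport, iron storage and the lysosome. Apoe, the carrier of exported cholesterol, made up 134500, 124500 and 139500 CPM in PBS, G-HD and MPG-HD. The ferritin chains followed, Ftl1 at 45100, 50370 and 57810 CPM and Fth1 at 31730, 36920 and 41470 CPM. Both were highest in MPG-HD, whereas lysozyme (Lyz2) was lowest there, at 21460, 21250 and 14710 CPM. Spp1, the secreted matrix protein osteopontin, stood at 11760, 10060 and 7044 CPM. Gpnmb, a lysosomal glycoprotein of lipid-loaded phagocytes, stood at 8863, 10880 and 9216 CPM. The cathepsins Ctsd (8461, 7353 and 8096 CPM) and Ctsb (6342, 7192 and 6594 CPM) digest protein in lysosomes. Lgals3, a galectin that binds damaged lysosomes, stood at 4288, 4543 and 3634 CPM. Other abundant RNAs lay outside these themes, among them Tmsb4x, at rank 4 with 21740, 22360 and 19970 CPM. Ifitm1 was at rank 11 with 5225, 6995 and 6370 CPM.

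Members held less RNA of inflammatory, interferon, antigen presentation and microglial genes than the other phagocytes. They held more RNA of 6 of 12 measured genes of iron and haem handling, while the lists of lipid uptake and of proteases were divided. Because the same RNA profiles chose the members, these values describe the class and are no test. Over 6852 genes with enough UMIs, 192 (2.8%) were at least 2-fold higher in members in all 3 libraries and 399 (5.82%) at least 2-fold lower. At 1.5-fold, the measure used for gene lists, 335 genes (4.89%) were higher and 954 (13.9%) lower, and the median gene stood at log2 -0.29, -0.24 and -0.30.

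Among the 20 genes furthest above the other phagocytes was Mmp8, a collagenase, at 165.7, 114.0 and 238.9 CPM in members and 3.244 and 6.19 CPM in the other phagocytes of PBS and G-HD. Mmp7, matrilysin, stood at 115.5, 28.03 and 12.51 CPM in members, so its excess was largest in PBS. S100a11, a calcium-binding protein, stood at 2244, 1841 and 2212 CPM, 11.7-fold above the others in PBS and 7.56-fold in G-HD. Hsd11b1, which makes active glucocorticoid from its inert form, was 17.9-fold and 13.6-fold higher in those libraries. Cd200, a surface ligand that restrains myeloid cells, was 24.7-fold and 10.3-fold higher. Serping1, the C1 inhibitor of complement, stood at 708.1, 351.0 and 126.3 CPM in members. Lgals1, a galectin, stood at 3422, 4559 and 3381 CPM, 6.74-fold and 6.19-fold above the others in PBS and G-HD. The list also held Phospho1, Mreg, Plpp3, Mgst2, Col15a1, Plp2, Mgll, Mrgprx2, Meis3, Optn, Plscr1, Tgm2 and Siglec10. These genes were higher in members of each library, but Mmp7 and Serping1 differed several-fold between libraries.

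The 10 genes furthest below the others were led by class II antigen presentation. Cd74, the invariant chain, stood at 85.1, 125.9 and 93.1 CPM in members against 1383, 1990 and 1122 CPM in the others. RT1-Bb and RT1-Da, class II chains, stood at 5.126 and 30.07 CPM in PBS members against 201.6 and 698.7 CPM. The related class II genes RT1-Db1 and RT1-Ba were in the score of class D, so part of this contrast was set by the rule. The complement protein C3 stood at 2.392 CPM in PBS members against 82.55 CPM, and the leukotriene synthase Ltc4s at 3.759 against 95.04 CPM. F10, Anxa3, Spint1, Edn3 and Pld4 completed the 10.

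Genes of lipid uptake and storage were split rather than uniformly high. In the uptake list 3 of 8 measured genes were at least 1.5-fold higher in all libraries and 1 was lower. Scarb1, the receptor for high-density lipoprotein, was 4.79-, 5.06- and 5.78-fold higher in PBS, G-HD and MPG-HD. Lpl, lipoprotein lipase, was 7.59-, 5.47- and 2.58-fold higher, so its excess was smallest in MPG-HD. Olr1, a receptor for oxidized lipoprotein, was lower, at 0.236, 0.187 and 0.136 of the others. In the droplet list 4 of 11 were higher and 0 lower. Dgat2, which makes triglyceride, was 5.13-, 3.79- and 4.53-fold higher, and Mgll, which splits monoglyceride, 8.38-, 5.83- and 7.73-fold. The droplet coat gene Plin2 stood at 1.45, 1.68 and 1.66 times the others. In the efflux and lysosomal lipid list 3 of 16 were higher and 1 lower. Nr1h3, the sterol sensor LXR-alpha, was 2.31-, 2.83- and 3.65-fold higher, while the exporter Abcg1 stood at 1.03, 0.863 and 0.983 times the others. None of 15 measured genes of fatty acid oxidation and none of 22 of oxidative phosphorylation reached 1.5-fold in either direction in all libraries.

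A list of 25 genes often named in lipid-associated phagocytes was likewise divided, with 11 of 24 measured genes higher and 3 lower. Spp1 was 4.39-, 4.01- and 3.25-fold higher in members, and Gpnmb 2.30-, 2.37- and 2.58-fold. Trem2, the lipid-sensing receptor that heads that programme, stood at 1.06, 1.03 and 0.866 times the other phagocytes. Members therefore did not stand out by Trem2 RNA in any library. Axl, a receptor for dying cells, stood at 0.203, 0.147 and 0.134 of the others, and Ch25h, which makes the oxysterol 25-hydroxycholesterol, at 0.137, 0.0975 and 0.138. Igf1, a growth factor, stood at 0.658, 0.643 and 0.479.

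Iron handling stood higher and inflammation lower. In the iron and haem list 6 of 12 measured genes were higher in all libraries and 0 lower, with list medians of log2 0.70, 0.55 and 0.73. Ftl1 was 2.34-, 2.22- and 2.60-fold higher and Blvra, which reduces biliverdin from haem, 4.59-, 4.18- and 5.40-fold. Hmox1, the haem oxygenase that comes before it in haem breakdown, stood at 0.954, 0.934 and 0.903 times the others. In the protease list 4 of 13 were higher and 3 lower; Mmp14, a membrane collagenase, was 6.70-, 5.90- and 4.93-fold higher. Ctsk, the collagen-degrading cathepsin of osteoclasts, was 6.69-, 3.98- and 5.26-fold higher, and Acp5, the acid phosphatase of osteoclasts, 3.49-, 2.74- and 3.42-fold. None of 16 measured pro-inflammatory genes was higher and 14 were lower. Il1b, encoding interleukin-1 beta, stood at 273.7, 288.2 and 282.7 CPM in members against 1164, 1663 and 1099 CPM in the others. In the chemokine list 9 of 15 were lower, in the interferon list 17 of 21, in the antigen presentation list 8 of 11 and in the complement list 8 of 15. C1qa, a chain of complement C1q, stood at 0.245, 0.178 and 0.212 of the others, whereas Cd59, which blocks the membrane attack complex, was 2.68-, 3.05- and 2.91-fold higher.

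**Figure D2:**
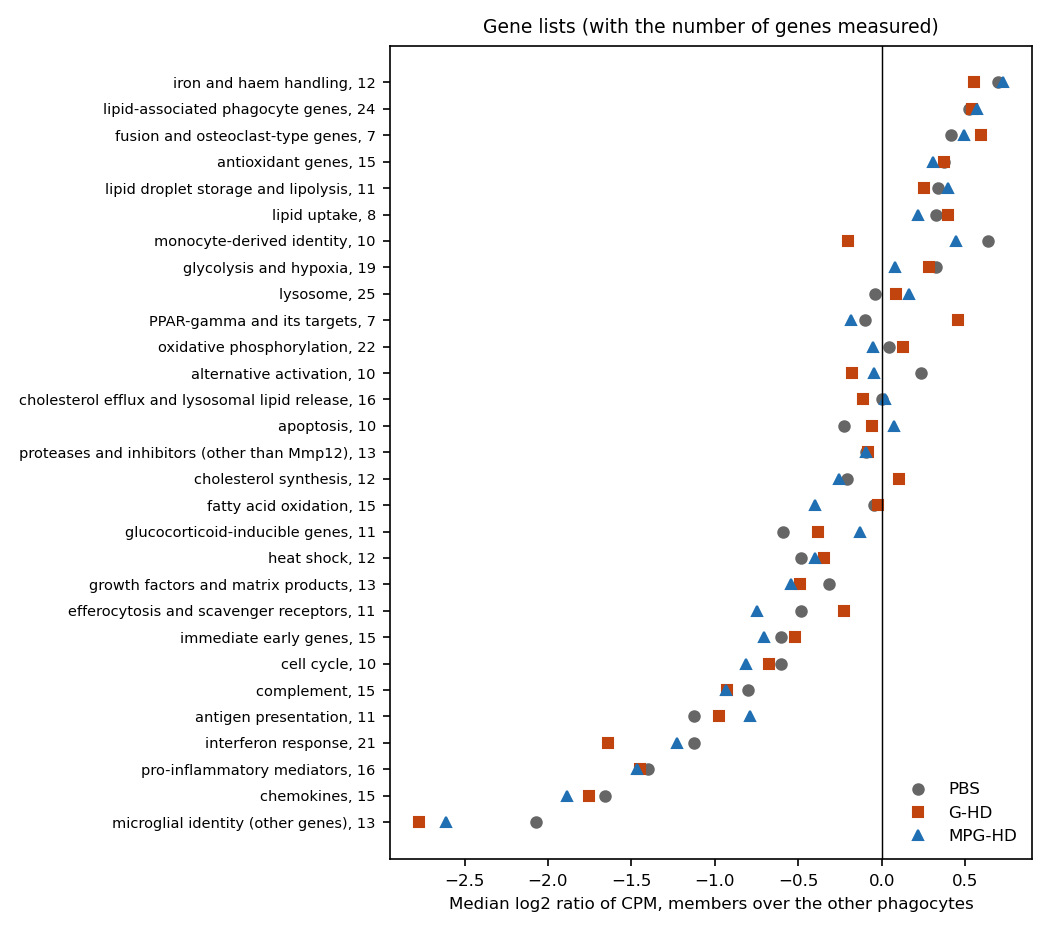
Median log2 ratio of members over other phagocytes for each gene list, 1 point per library, with the number of measured genes beside each name; the vertical line marks equal levels. Iron and haem handling lies at 0.55 to 0.73 and microglial identity at -2.07 to -2.77.

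Class C was the nearest of the other classes. Against it 249 of 5447 measured genes were at least 1.5-fold higher in members in all libraries and 357 lower, compared with 437 and 1144 of 5674 against class A and 262 and 753 of 4599 against class D. Against class C the pro-inflammatory list still stood lower, with 8 of 12 measured genes, and the interferon list with 13 of 18. Antigen presentation did not stand apart there, with 1 of 9 genes higher and 1 lower. The lipid-associated list had 9 of 23 higher and 3 lower, and iron handling 4 of 12 higher and 0 lower.

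The grouping was also looked for without the genes that made the classes. Phagocytes were clustered on 2000 variable genes with all gate and score genes removed, which gave 17 clusters. Clusters 1 and 5 consisted mostly of members and held 650 of the 859 (75.7%), and 89.4% of their 727 cells were members. Among the 20 nearest neighbours of a member, a median of 90% were members, against 0% for other phagocytes and 29.0% of all phagocytes. That share was 50% for members with a gap under 0.1, 60% from 0.1 to 0.5, 90% from 0.5 to 1 and 100% above 1. Median depth rose in the same order, at 10938, 13759, 17874 and 22220 UMIs, and its part in the shares was not tested. For the 66 members with a score below 0 the share was 20%. Members near the border thus had mixed neighbours. The other members were spread over clusters that were mostly of other classes: 66 in cluster 4, 50 in cluster 3, whose median depth was 1933 UMIs, 41 in cluster 2 and 18 in cluster 10, led by Col1a1 and Col3a1. Cluster 7, led by the interferon genes Mx1, Isg15 and Cxcl10, held 130 cells and 0 members.

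Most members fell into a larger and a smaller group with different levels of lipid genes. Cluster 1 held 514 members (59.8% of all) and was led by Mmp8, Apoc4, Scarb1, S100a11, Cd200 and Krt75. Cluster 5 held 136 members (15.8%) and was led by Serping1, Lpl, Spp1, Mt3, Nppb and Fn1, with a median depth of 26218 UMIs. The score genes had no part in this clustering. Fabp4 stood at 4199, 3600 and 2204 CPM in cluster 5 members of PBS, G-HD and MPG-HD, and at 762.1, 738.8 and 610.4 CPM in cluster 1. Fabp5 went the other way, at 1659, 2398 and 2951 CPM in cluster 5 and 4189, 3672 and 4283 CPM in cluster 1. Both groups thus held RNA of both fatty acid binding proteins, with levels that differed in opposite directions. Among the genes that took part in the clustering, Spp1 stood at 29830, 27730 and 25550 CPM in cluster 5 and 3503, 4180 and 3576 CPM in cluster 1. Apoe stood at 75360, 67060 and 69540 CPM in cluster 5 and 175400, 156300 and 162800 CPM in cluster 1.

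**Figure D3:**
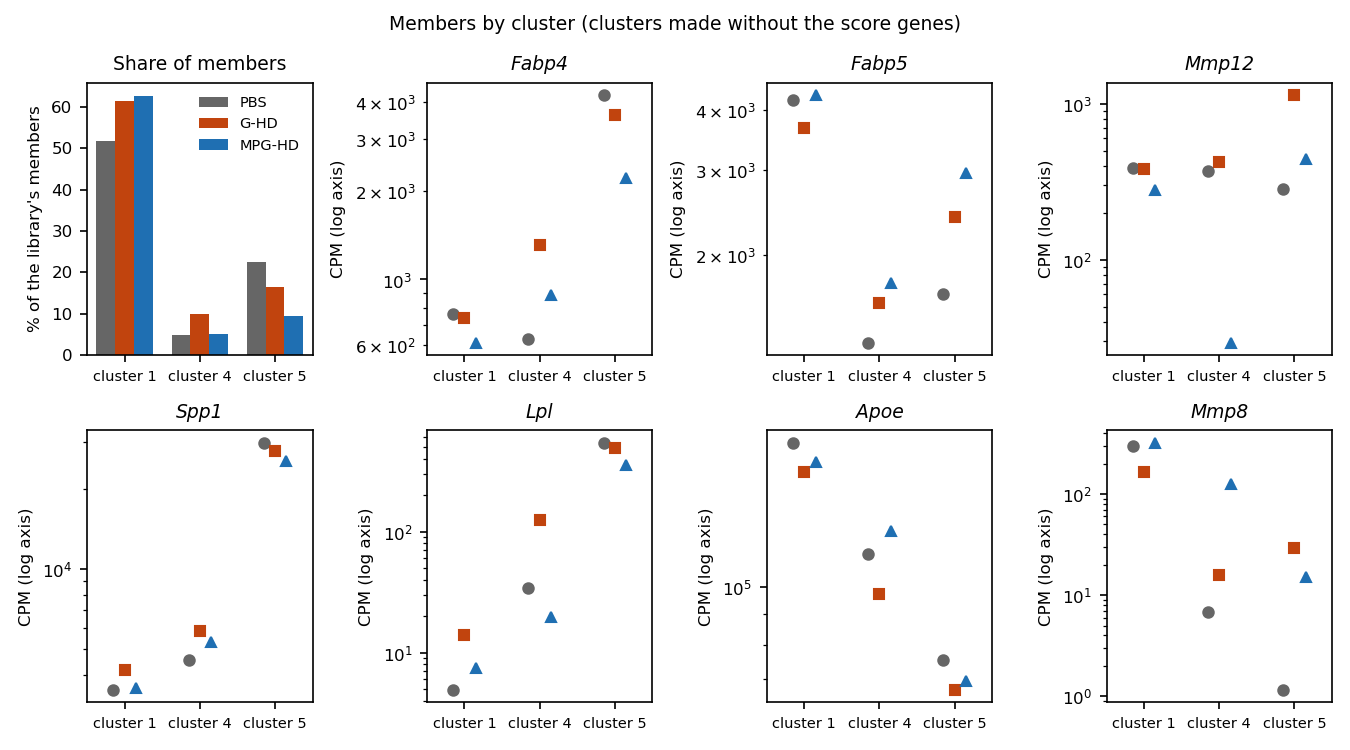
Levels (CPM, log axis) of score genes and leading genes in members of clusters 1, 4 and 5, by library. Fabp4 and Spp1 are highest in cluster 5 and Fabp5 and Apoe in cluster 1 in all 3 libraries.

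The mix of these groups differed between libraries. Cluster 5 took 38 of 168 PBS members (22.6%, exact interval 16.5 to 29.7), 76 of 458 in G-HD (16.6%, 13.3 to 20.3) and 22 of 233 in MPG-HD (9.44%, 6.01 to 13.9). The ratio of MPG-HD to PBS was 0.417 (0.235 to 0.724). Cluster 1 took 51.8%, 61.4% and 62.7%, with intervals that overlapped. A level over all members therefore also carries this mix, and levels within cluster 5 rest on only 22 MPG-HD cells.

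Members made up 23.4% of phagocytes in PBS (exact interval 20.3 to 26.6), 38.5% in G-HD (35.7 to 41.3) and 22.2% in MPG-HD (19.7 to 24.9). G-HD was the library apart, with 1.65 times the PBS share (1.38 to 1.98), and MPG-HD stood at 0.951 of PBS (0.776 to 1.17). MPG-HD stood at 0.578 of G-HD (0.491 to 0.678). Of all cells, members were 12.2%, 19.5% and 11.1%, while phagocytes as a whole were 52.2%, 50.8% and 50.2%. Within the phagocytes, class A was 33.2%, 20.7% and 30.8%, class C 26.6%, 20.8% and 29.2%, and class D 16.8%, 20.1% and 17.8%. The library with more members thus had lower shares of classes A and C. Clusters 1 and 5, made without rule genes, held 19.6%, 32.7% and 18.8% of phagocytes, a G-HD to PBS ratio of 1.67 (1.37 to 2.03). They were picked because most of their cells were members (89.4%), so similar shares are no independent check. The G-HD to PBS ratio of the member share was 2.00 when members needed a gap of at least 0.25. It was 1.39 (1.16 to 1.66) with scores standardized within each library. Dissociation, recovery and the animals differ between libraries together with the substance, and these cannot be told apart with 1 library each.

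**Figure D4:**
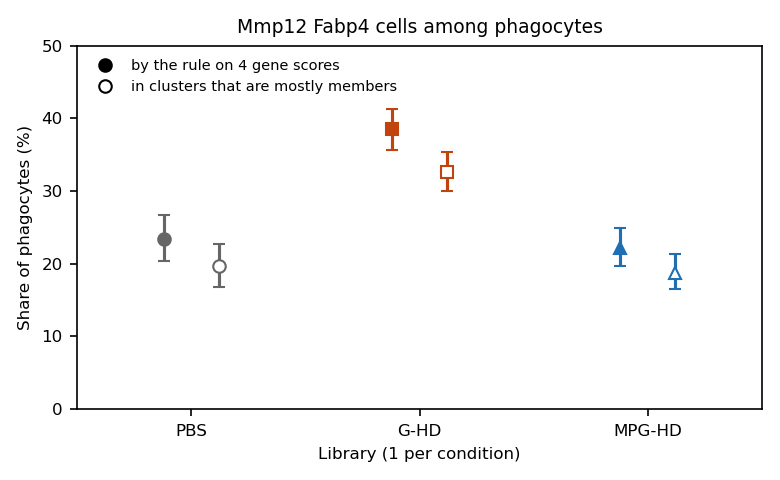
Members as a percent of phagocytes in each library with exact 95% intervals, by the score rule, and cells of the clusters that are mostly members. These clusters were made without the rule genes but picked by their share of members, so they are no independent check. G-HD lies at 38.5% and 32.7%, PBS and MPG-HD between 18.8% and 23.4%.

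Between G-HD and PBS members, interferon-induced genes and the clotting factor gene F13a1 were higher in G-HD, and the protease Mmp7 and the chaperone Hspa1b were lower. Over 7151 genes with at least 50 UMIs in both libraries together, 164 (2.29%) were at least 2-fold higher in G-HD and 75 (1.05%) at least 2-fold lower. Without the cells of highest doublet scores the counts were 98 and 82, a smaller excess of higher genes. In the clusters taken in place of the rule they were 104 and 68. At 1.5-fold 605 genes (8.46%) were higher and 301 (4.21%) lower, and the median gene stood at log2 0.06. The named genes are from the first 10 in each direction, ordered by the interval bound nearest to 1 and leaving out genes with over 25% of their UMIs in 1 cell.

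Cd5l, a secreted lipid-binding protein of macrophages, led the genes higher in G-HD, at 1.025 CPM in PBS, 12.5 in G-HD and 5.053 in MPG-HD. Its G-HD to PBS ratio was 12.2 (4.08 to 60.1) and rested on 3 UMIs in PBS. In the other phagocytes the ratio was 0.953 (0.550 to 1.66). F13a1, a clotting factor subunit made by macrophages, stood at 14.4, 60.6 and 16.4 CPM, a ratio of 4.22 (3.08 to 5.92), and was 6.48-fold higher in non-phagocytes. Rab15, a vesicle traffic protein, stood at 2.392, 15.8 and 15.2 CPM. Abcb10, a mitochondrial transporter, stood at 8.544, 29.1 and 23.3 CPM. Cald1 and Phlda3 stood at 0.683 and 2.051 CPM in PBS and 6.045 and 10.6 CPM in G-HD; with every cell given the same weight their ratios were 1.42 and 1.56. Cald1 is a contractile protein of fibroblasts and muscle, and the fibroblast list below moved the same way; its part in these ratios was not tested.

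Interferon-induced genes had the most genes past 1.5-fold among the 29 pathway lists. Of 21 measured list genes, 16 stood at least 1.5-fold above PBS in G-HD members and 0 below; the list median was log2 0.76. In the other phagocytes the same genes had a median of 1.06, so it was present outside the members too. Ifitm3, a membrane protein that blocks virus entry, stood at 6.152, 38.8 and 48.9 CPM, a G-HD to PBS ratio of 6.31 (3.93 to 10.8). Oas1a, a sensor of double-stranded RNA, stood at 1.709, 16.6 and 12.3 CPM, and Mx1, an antiviral GTPase, at 1.367, 11.6 and 16.1 CPM. These were low levels: Oas1a was detected in 16.6% of G-HD members and Mx1 in 9.83%. Ifit3 stood at 5.126, 39.6 and 16.8 CPM, and 139 of its 360 UMIs in G-HD came from 1 cell. Within each library all 4 stood below the other phagocytes, where Mx1 was at 81.1, 204.9 and 98.0 CPM. Promoters of 3 of these genes are shown because the ISRE pattern (GAAA, any 2 bases, GAAA), the core of the interferon-stimulated response element, was found in 14 of the 19 list genes that matched the promoter table and in 3.92% of all promoters. Capitals mark it, read on both strands; Ifitm3 lies at chr1:205541759-205541908 on the minus strand, Oas1a at chr12:41330316-41330465 and Ifit3 at chr1:241527176-241527325 on the plus strand (GRCr8).
Ifitm3: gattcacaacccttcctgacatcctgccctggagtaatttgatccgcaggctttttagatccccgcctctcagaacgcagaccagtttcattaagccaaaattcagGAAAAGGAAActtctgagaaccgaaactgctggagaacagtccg
Oas1a: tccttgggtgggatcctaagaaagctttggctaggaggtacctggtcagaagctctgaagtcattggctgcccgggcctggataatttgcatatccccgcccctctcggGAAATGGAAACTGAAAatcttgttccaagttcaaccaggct
Ifit3: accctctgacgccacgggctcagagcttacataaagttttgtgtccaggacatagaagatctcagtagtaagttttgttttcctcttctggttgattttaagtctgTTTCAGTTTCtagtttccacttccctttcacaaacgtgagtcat
Matches began 44 bases before the start for Ifitm3 and Ifit3, in Ifit3 on the other strand. In Oas1a 2 overlapping matches began 41 and 35 bases before it.

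Lower in G-HD were single genes of different kinds, led by the chaperone Hspa1b. Hspa1b stood at 66.0, 10.0 and 32.2 CPM, a ratio of 0.152 (0.117 to 0.195), and at 0.0864 in the other phagocytes. Mmp7 stood at 115.5, 28.03 and 12.51 CPM, a ratio of 0.243 (0.205 to 0.286). In the members of cluster 5, which held 15.8% of all members, Mmp7 stood at 196.4, 13.2 and 31.8 CPM, highest in PBS. Mmp7 was not kept out of the clustering, so these levels are a description only. Cd24, a surface glycoprotein, stood at 32.5, 5.825 and 27.4 CPM, and Ch25h at 46.1, 18.02 and 27.4 CPM. In the other phagocytes Ch25h had a ratio of 0.550, so it was lower there too. Angptl8, a secreted regulator of lipoprotein lipase, stood at 71.4, 30.0 and 63.8 CPM. Nol10, Slc39a2, Golm1 and Dnai2 were also lower, with ratios from 0.224 to 0.291.

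Lipid genes did not move together between these libraries. In the droplet list 3 of 12 measured genes passed 1.5-fold upwards and 1 downwards, and the list median was log2 0.24. That median was 0.25 in the other phagocytes. Among PPAR-gamma and its targets 3 of 9 passed upwards and 0 downwards, but the list median was only 0.0048. Lipid uptake had 1 of 10 genes past 1.5-fold each way and a median of 0.30. None of 16 efflux and lysosomal lipid genes reached 1.5-fold. In the lipid-associated list 1 of 24 measured genes was higher in G-HD, Plin2, and 2 were lower, Ch25h and Axl; the median was log2 -0.04. In the list of cholesterol synthesis 3 of 15 were higher and 0 lower, with a median of 0.43 against -0.26 in the other phagocytes and 0.14 with every cell given the same weight. Among them were Sc5d and Stard4, on 7 and 12 UMIs in PBS; the interval of Stard4 (0.810 to 3.13) held 1. In the protease list 1 of 14 was higher and 4 were lower, among them Mmp9, a gelatinase, at 34.9 CPM in PBS and 11.98 in G-HD, and Ctsk at 1233 and 767.7 CPM. None of 12 iron and haem genes reached 1.5-fold. Of the score genes, Mmp12 was higher in G-HD, and by cluster this was seen in cluster 5 and not in cluster 1. In cluster 5 Mmp12 stood at 284.2 CPM in PBS and 1129 in G-HD, with 564 of the 2482 G-HD UMIs in 1 cell, whereas in cluster 1 it stood at 384.4 and 381.0 CPM. Mmp12 helped choose the members, so these values are a description.

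Between MPG-HD and PBS members, interferon-induced genes were higher in MPG-HD, and Mmp7, Serping1 and the lipoprotein lipase gene Lpl were lower. Over 5881 genes, 46 (0.782%) were at least 2-fold higher in MPG-HD and 67 (1.14%) lower. At 1.5-fold 219 (3.72%) were higher and 340 (5.78%) lower, with a median gene at log2 -0.03. This comparison shares its PBS cells with the previous one, so genes that appear in both are not independent.

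Ifitm3 led the genes higher in MPG-HD, with a ratio of 7.94 (4.90 to 13.7), followed by Mx1 at 11.8 (4.40 to 44.5). Ly6e, an interferon-induced surface protein, stood at 39.6 CPM in PBS, 89.7 in G-HD and 118.4 in MPG-HD, and Ifi27l2b at 22.9, 44.3 and 75.1 CPM. Cyp2d3, a cytochrome P450, stood at 6.493, 7.693 and 21.2 CPM. Taf10, a general transcription factor subunit, stood at 63.9, 136.5 and 135.5 CPM and was 2.03-fold higher in the other phagocytes too. Rab15, Oas1a and Ifit3 were also among the genes higher in MPG-HD. In the interferon list 9 of 17 were higher and 0 lower, with a median of log2 0.75 against 0.32 in the other phagocytes. That median was 0.41 without the cells of highest doublet scores and 0.23 in thinned cells.

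Among genes lower in MPG-HD, Mmp7 had a ratio of 0.108 (0.0793 to 0.145). Serping1 stood at 708.1, 351.0 and 126.3 CPM, a ratio of 0.178 (0.162 to 0.196), and at 0.466 in the other phagocytes. Within cluster 5 Serping1 stood at 2120, 993.8 and 453.8 CPM and within cluster 1 at 116.3, 125.4 and 73.6 CPM. Lpl stood at 167.5, 145.6 and 58.0 CPM, a ratio of 0.346 (0.296 to 0.405), and at 1.02 in the other phagocytes. Within cluster 5 Lpl stood at 544.2, 495.5 and 353.4 CPM, a narrower spread than over all members. Serping1 and Lpl are leading genes of cluster 5 and were not kept out of the clustering. Their levels within clusters are therefore a description only. Cxcl14, a chemokine, stood at 293.6, 165.2 and 95.3 CPM, and Fxyd2, a regulator of the sodium pump, at 198.9, 97.6 and 68.3 CPM. Ccnd1, cyclin D1, stood at 43.7, 26.9 and 11.1 CPM. Nol10, Rassf4 and Rasgrp3 were lower too; with every cell given the same weight Rassf4 had a ratio of 0.581 in place of 0.148.

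The lipid-associated list stood lower in MPG-HD members, with 7 of 23 measured genes at least 1.5-fold lower, 0 higher and a median of log2 -0.24. The 7 were Spp1 (ratio 0.599), Cd9 (0.511), Lpl (0.346), Csf1 (0.417), Itgax (0.513), Axl (0.565) and Ch25h (0.595). In the protease list 4 of 11 were lower and 0 higher: Mmp7, Mmp9 (ratio 0.124), Ctsk (0.662) and Plaur (0.528). Mmp9 was outside the first 10 lower genes here too, under the same limits on equal cell weight and on 1 cell. In the chemokine list 3 of 13 were higher and 5 lower. No gene of cholesterol synthesis, of droplet storage, of iron handling or of antioxidant defence reached 1.5-fold in either direction. Within cluster 5 Spp1 stood at 29830 CPM in PBS and 25550 in MPG-HD, and within cluster 1 at 3503 and 3576 CPM. Cluster 5 also took a smaller share of MPG-HD members. Spp1 took part in the clustering, so its levels within clusters cannot show why it was lower over all members, and this was not tested.

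**Figure D5:**
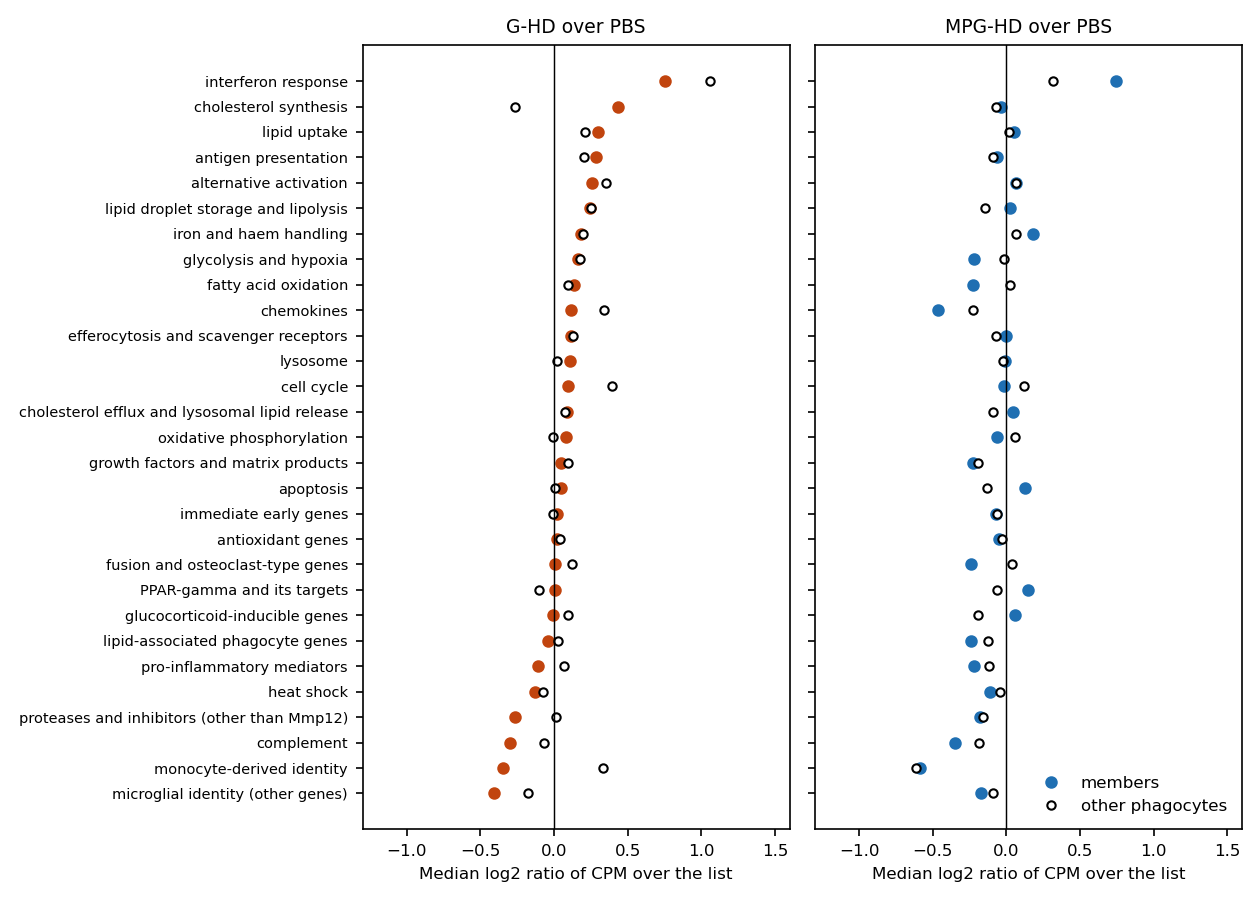
Median log2 ratio of each gene list between libraries, in members (filled) and in other phagocytes (open); the vertical line marks equal levels. The interferon list lies at 0.76 for G-HD over PBS and 0.75 for MPG-HD over PBS in members, and at 1.06 and 0.32 in other phagocytes.

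Compared directly, MPG-HD members held more Cd24, Ncf1 and Hspa1b RNA than G-HD members and less F13a1 and Serping1 RNA. Over 7291 genes, 33 (0.453%) were at least 2-fold higher in MPG-HD and 111 (1.52%) lower. At 1.5-fold 145 (1.99%) were higher and 484 (6.64%) lower. Cd24 had a ratio of 4.71 (3.37 to 6.65). Ncf1, a subunit of the phagocyte oxidase, stood at 115.3 CPM in G-HD and 313.1 in MPG-HD, a ratio of 2.71 (2.501 to 2.95). Hspa1b had a ratio of 3.22 (2.45 to 4.25) and Lilrb3a, an inhibitory receptor, one of 2.71 (2.04 to 3.61). Cyp2d3 had a ratio of 2.75 and was 5.85-fold higher in the other phagocytes. Lower in MPG-HD were S100a9, with a ratio of 0.105 (0.0472 to 0.203), and Ngp, which had 1 UMI in MPG-HD and 54 in G-HD. Both were lower in non-phagocytes as well, at 0.0557 and 0.0291. S100a9 was part of the gate. Both are known from neutrophils. The neutrophil marker list summed to 188.0 CPM in G-HD members and 270.7 in MPG-HD members. Mmp8, which was high in members of every library, took 114.0 and 238.9 CPM of these sums. By gene, 1 of 6 measured genes of the list was higher in MPG-HD members and 3 were lower, with a median of log2 -0.73. Over all cells the list stood at 8579 CPM in G-HD and 573.5 in MPG-HD. A neutrophil source of these RNAs was not tested. F13a1 had a ratio of 0.270 in members and 0.0920 in non-phagocytes, Serping1 one of 0.360, and Cabp2 one of 0.148 that rested on 4 UMIs. In the interferon list 1 of 21 was higher and 6 were lower, with a median of log2 -0.24, and 0.061 in thinned cells. In the glycolysis list 0 of 19 were higher and 5 lower, with a median of -0.41.

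RNA of other cell types was present in members and uneven between libraries. The fibroblast list summed to 47.9 CPM in PBS, 326.3 in G-HD and 107.1 in MPG-HD; 1 G-HD cell held 1156 of the 2969 UMIs, and without the cells of highest doublet scores the sums were 48.0, 73.4 and 66.4 CPM. The oligodendrocyte list summed to 302.8, 338.9 and 269.3 CPM, with 1214 G-HD UMIs in 1 cell, and to 309.1, 171.3 and 255.8 CPM without those cells. The neutrophil list, which includes Mmp8, summed to 220.4, 188.0 and 270.7 CPM, with Ltf at 0 in all 3 libraries. The monocyte list summed to 158.6, 35.4 and 110.2 CPM, of which 5 cells per library held 91.4%, 56.2% and 78.4%. B lineage markers were at 0, 1.209 and 0 CPM. The dendritic list summed to 50.9, 49.1 and 41.9 CPM, with a UMI in 47.0%, 53.9% and 45.9% of members. Its gene Irf8 stood at 47.2 CPM over all members, while Flt3, Xcr1, Ccr7 and Cd209a were at 0 in all 3 libraries. The G-HD genes Cald1, Phlda3 and the fibroblast list moved together, and the part of cell pairs in those values was not tested. The automatic doublet call marked 12 of 5815 cells (0.206%), which was taken as too few to rely on. Whether doublets had been removed before deposit is not stated. The alternative therefore left out the 6% of cells with the highest scores, which held 56 members. Library pairs shared 8, 5 and 8 cell barcodes.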

How the data were processed

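Single-cell RNA of dissociated rat cord was read with a 10x 3′ kit, per the labels' protocols. The authors deposited 1 matrix of UMI counts per library, raw and not normalized, with 25199 rat Ensembl genes; per the file headers the matrices were written by software version 3.1.0, and per the submitters' processing notes with Cell Ranger 3.0.2 against GRCm38 (mm10), a mouse build that cannot supply rat gene identifiers, so the rat build is not given in the sources used here. Here cells showing 200 or more genes and no more than 20% mitochondrial UMIs were kept, and the class rule given in the report was applied. The members and the lists (29 pathway and 17 marker lists) were chosen with earlier results of these data known. Counts were summed over cells and libraries compared as ratios of CPM with exact conditional intervals (Clopper-Pearson for shares), for genes whose 2 sums came to 50 UMIs or more; a sum of 0 was set to a floor of 3 UMIs. With 1 library per condition no p-value was computed. Genes named are the first 10 (5 for MPG-HD against G-HD) in each direction by the interval bound nearest to 1, past 2-fold, in the same direction with every cell given the same weight and with at most 25% of the UMIs in 1 cell (20 and 10 for members against other phagocytes); other list genes were named after their values were seen. Some genes that this rule selects are not reported here. Alternatives were stricter cell filters, another gate, a score gap, other UMI minimums, equal weight per cell, thinning to 2000 UMIs, removal of high Scrublet scores and, added after seeing the data, clusters in place of the rule. Promoters came from the RefSeq table (GRCr8). Tools were Python 3.11.15, NumPy 2.4.6, SciPy 1.17.1, pandas 2.3.3, Scanpy 1.11.5, scikit-learn 1.9.0, leidenalg 0.10.2 and matplotlib 3.10.9; the scripts were tested on simulated data.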

Additional observations from a re-analysis of the deposited data

How the results depend on the processing

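The share of members was higher in G-HD than in PBS under every alternative run. The G-HD to PBS ratio (1.65) was 2.00 with a score gap of at least 0.25. With scores standardized within each library it was 1.39 (1.16 to 1.66), and the MPG-HD to G-HD ratio was 0.716 (from 0.578). The number of genes 2-fold apart depended on settings most. For G-HD over PBS, MPG-HD over PBS and MPG-HD over G-HD in turn it was 607, 357 and 355 with every cell given the same weight, 70, 34 and 43 in thinned cells, 581, 349 and 416 with at least 20 UMIs, and 50, 31 and 38 with at least 200 UMIs; thinning and the minimums change how many genes are tested. Clusters of resolution 0.4 that were mostly members held 83% of them. The oligodendrocyte list, at a median of log2 0.86 for G-HD over PBS, turned to -0.51 without the cells of highest doublet scores and -0.55 with equal cell weight; for MPG-HD over G-HD, at -0.63, it turned to 0.58 without those cells and 0.060 in thinned cells. The cause was not tested. The fibroblast list for G-HD over PBS went from 3.67 to 0.67 without those cells. No paired analysis was possible because each condition has 1 library. The median depth of members, 17623 to 19170 UMIs, limits genes under about 50 UMIs in both sums together.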
